A study of Mus musculus with 37 samples.

Results

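Immediate early genes are transcribed within minutes of a stimulus, without new protein being made first. The 9 genes described here are Fos, Fosb, Jun, Junb, Egr1, Atf3, Ier2, Dusp1 and Nr4a1, taken from brown adipose tissue arrays that measured 24657 gene symbols with 41155 probe sets. They were found by their symbol, and each has 1 probe set. The arrays covered 35 BXD strains, which are recombinant inbred lines bred from C57BL/6J and DBA/2J, and both parents. Each strain has 1 array, made from the combined RNA of about 5 males on chow diet that were 29 weeks old, fasted overnight, put under isoflurane anaesthesia and perfused before the tissue was snap-frozen. The study used such expression data to rank candidate genes for movement, and the labels name no stimulus.

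Growth factors, stress and hormones that raise cyclic AMP, such as noradrenaline in brown fat, switch immediate early genes on through transcription factors that are already in the cell, chiefly serum response factor and CREB. Fos, Fosb, Jun, Junb and Atf3 encode leucine zipper proteins that pair to bind AP-1 or CREB sites, and Egr1 and Nr4a1 encode DNA-binding factors of the zinc finger and nuclear receptor families. Ier2 encodes a small nuclear protein, and Dusp1 a phosphatase that turns MAP kinases off again. Their transcripts decay quickly, so that a level in frozen tissue reads the recent past of the cells.

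The stretches upstream of 4 of the genes are printed because CREB, the factor through which cyclic AMP acts, is a known regulator of several immediate early genes and its site can be read from the letters. RefSeq promoters were examined for 7 of the 9 genes, and those of Egr1 and Ier2 were not examined. Each printed run is the 250 bases before the annotated start on the gene's own strand in GRCm38.p6. Capitals mark any of 4 motifs, searched on both strands: the CREB site core TGACG, the CRE-like site TGACNTCA, the AP-1 site TGANTCA and TATAAA. The palindromic CRE, TGACGTCA, contains the core on each strand and is also a CRE-like site. The intervals are chr12:85473640-85473889 for Fos, chr4:95052223-95052472 for Jun, chr17:26508473-26508722 for Dusp1 and chr15:101266596-101266845 for Nr4a1.
Fos: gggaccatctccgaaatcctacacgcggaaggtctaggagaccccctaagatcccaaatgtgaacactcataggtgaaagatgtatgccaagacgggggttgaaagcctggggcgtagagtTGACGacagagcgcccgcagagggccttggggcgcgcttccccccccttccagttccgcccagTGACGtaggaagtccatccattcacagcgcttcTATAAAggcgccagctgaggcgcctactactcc
Jun: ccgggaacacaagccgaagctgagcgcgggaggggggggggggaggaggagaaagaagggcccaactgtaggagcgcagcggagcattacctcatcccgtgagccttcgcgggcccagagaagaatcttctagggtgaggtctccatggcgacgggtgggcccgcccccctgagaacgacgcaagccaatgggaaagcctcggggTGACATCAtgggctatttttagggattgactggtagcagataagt
Dusp1: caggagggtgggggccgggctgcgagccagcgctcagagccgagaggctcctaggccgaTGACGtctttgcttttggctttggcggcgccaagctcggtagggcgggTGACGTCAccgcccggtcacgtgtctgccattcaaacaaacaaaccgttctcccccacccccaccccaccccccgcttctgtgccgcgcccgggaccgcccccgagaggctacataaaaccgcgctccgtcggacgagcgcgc
Nr4a1: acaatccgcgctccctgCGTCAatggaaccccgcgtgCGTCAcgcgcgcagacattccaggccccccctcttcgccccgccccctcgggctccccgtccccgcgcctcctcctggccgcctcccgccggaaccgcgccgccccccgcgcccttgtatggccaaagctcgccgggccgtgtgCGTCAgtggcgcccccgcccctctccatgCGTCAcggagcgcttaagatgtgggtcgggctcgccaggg

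The CREB site core was present in 6 of the 7 promoters and in 17.8% of all 32851 promoters. Nr4a1 held 4 copies, Dusp1 3, Fos 2, Fosb, Junb and Atf3 1 each, and Jun 0. The CRE-like site was present in Jun and Dusp1 and in 7.49% of all promoters, and the palindromic CRE in Dusp1 and in 1.55%. TATAAA began 33 bases before the start of Fos and was not found in the other 6 windows, and it is in 12.4% of all promoters. The AP-1 site, held by 6.75% of all promoters, and the CArG box bound by serum response factor, held by 1.47%, were not found in these 7 windows. These matches describe the letters of short windows and were not tested for binding.

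Values are expression scores, because every array was brought to the same mean (8) and spread (an SD of 2), and the log base before that step is not given in the sources used here, so differences are in these units and are not fold changes. Array values of 1128 olfactory receptor probe sets, genes not used in fat, gave an upper limit of 7.94 for probe sets without clear signal, and 19436 probe sets had a mean above it. All arrays correlated with each other at r of 0.968 to 0.987. The tissue label was borne out by its markers, since all 10 brown fat markers were above that limit and their mean level ran from 12.1 to 12.6 over the strains. Skeletal muscle markers varied widely between arrays, with mean levels from 9.85 in BXD65 to 13.5 in BXD97, and liver markers reached 11.8 in BXD70 and 10.6 in DBA/2J against 7.84 in the lowest strain.

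The AP-1 genes differed widely in how much they varied over the strains. Fos ran from 7.51 in BXD90 through a median of 9.16 to 10.97 in BXD97 (mean 9.20 ± 0.63, SD, n = 35), and its SD was larger than that of 97.9% of the probe sets above the limit. BXD97 was 0.84 above the next strain, BXD69 at 10.13, and at the low end BXD90 and BXD87 (7.84) were the strains under the limit. Fosb ran from 8.04 in BXD90 through a median of 8.54 to 11.04 in BXD66 (mean 8.65 ± 0.58, SD, n = 35). BXD66 lay far from the rest, the next strain being BXD97 at 9.54, and without BXD66 the SD of Fosb was 0.41.

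Jun ran from 10.62 in BXD95 to 12.38 in BXD65 around a median of 11.48 (mean 11.51 ± 0.44, SD, n = 35). BXD65, BXD97 (12.37) and BXD69 (12.29) were the highest and lay close together. Junb was steadier, from 9.34 in BXD68 through 9.78 to 10.49 in BXD83 (mean 9.80 ± 0.28, SD, n = 35), an SD larger than that of 76.5% of probe sets above the limit. Atf3, which is also a stress-response factor, ran from 8.55 in BXD95 through 9.28 to 10.09 in BXD69, with BXD65 at 10.06 (mean 9.31 ± 0.41, SD, n = 35).

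Nr4a1 had the largest SD of the 9 genes, larger than that of 99.1% of probe sets above the limit, followed by Egr1 at 98.3%. Nr4a1 ran from 9.84 in BXD95 through a median of 12.35 to 13.77 in BXD49 (mean 12.18 ± 0.89, SD, n = 35), a range of 3.93 units. Its lowest strains after BXD95 included BXD103 at 10.36, and its highest after BXD49 were BXD70 at 13.33 and BXD51 at 13.18. Egr1 ran from 8.33 in BXD90 through 9.50 to 10.99 in BXD79 (mean 9.50 ± 0.68, SD, n = 35), with BXD69 at 10.84 and BXD65 at 10.71. Of the 3 highest strains of Egr1, BXD79 and BXD65 had Nr4a1 values of 12.96 and 13.10, above its median, and BXD69 had 12.26, below it.

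Dusp1 ran from 11.46 in BXD99 through 12.13 to 13.02 in BXD69 (mean 12.16 ± 0.39, SD, n = 35), with BXD65 at 12.93 and BXD97 at 12.83. Ier2 ran from 7.42 in BXD55 through 7.91 to 8.62 in BXD97 (mean 7.92 ± 0.28, SD, n = 35). The mean of Ier2 was just under the limit and 15 of 35 strains were above it, so low Ier2 values are near the floor of the array. In all, 8 of the 9 genes had a mean above the limit, all 9 had an SD above the median of such probe sets (0.19), and 6 were in the top 10%. Since each strain had 1 array, differences between strains and error between arrays cannot be told apart in these spreads.

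**Figure D1:**
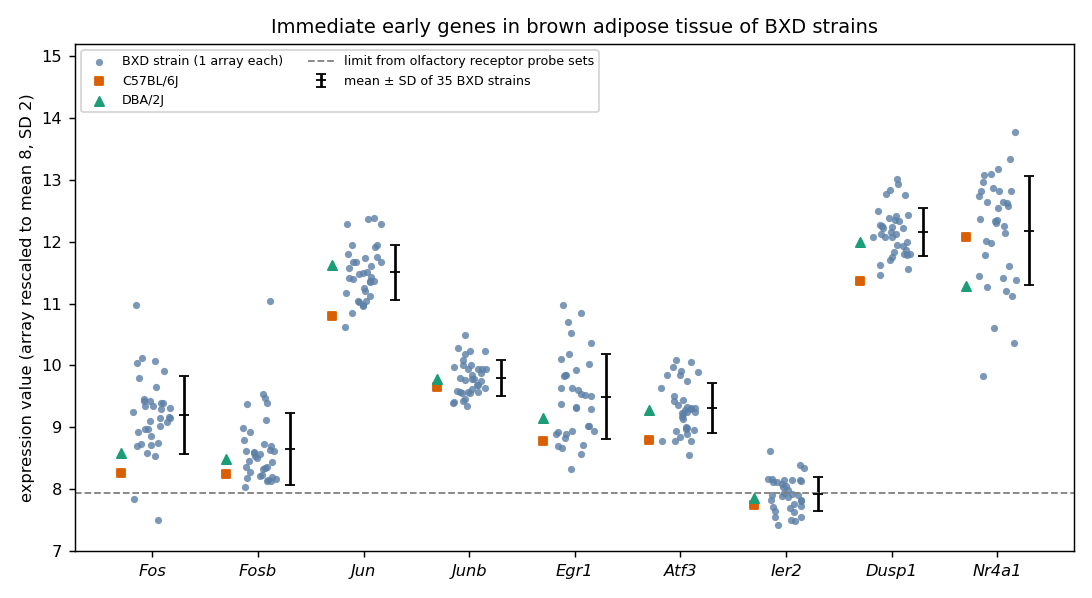
Expression value (vertical axis, array rescaled to mean 8 and SD 2) of the 9 genes, with 1 point per BXD strain, the mean ± SD of the 35 strains at the right of each column of points, C57BL/6J as squares, DBA/2J as triangles, and the limit of 7.94 as a dashed line. Nr4a1 has the widest spread, BXD66 stands alone at the top of Fosb, and Ier2 straddles the limit.

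The same strains were high in most of the genes. After each gene was turned into z scores over the strains, the mean of the 9 z scores was highest in BXD97 (1.76), BXD69 (1.47) and BXD65 (1.37) and lowest in BXD95 (-1.37), BXD103 (-1.05) and BXD90 (-0.95). These strains were chosen by the values of the same 9 genes, so their counts of top or bottom places follow partly from that choice. BXD97 was among the 3 highest strains for 7 of the 9 genes, and for 8.19% of all probe sets above the limit. BXD69 was among the 3 highest for 6 genes (9.03% of probe sets) and BXD65 for 4 (8.73%). BXD95 was among the 3 lowest for 4 genes, against 12.8% of probe sets, BXD90 for 4, against 7.92%, and BXD103 for 2, against 8.39%. These strains differed widely in the muscle markers. The muscle score, the mean z score of 10 genes, was 1.44 in BXD97 and 1.09 in BXD69 but -2.73 in BXD65. In the low strains it was -2.07 in BXD95, -1.39 in BXD90 and -0.09 in BXD103.

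**Figure D2:**
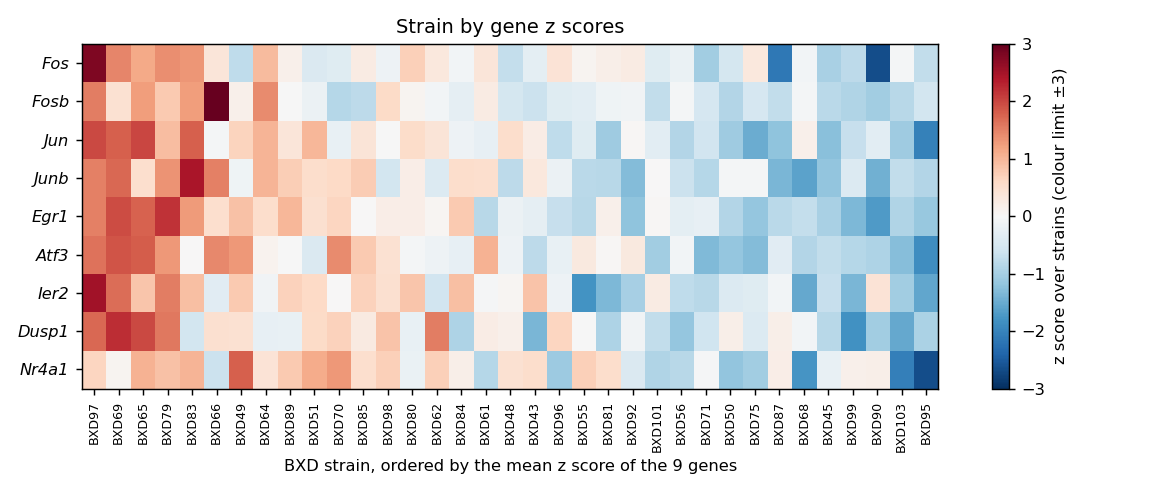
z scores (colour, limited at ±3) of the 9 genes (rows) in the 35 BXD strains (columns, ordered by the mean z score of the 9 genes, from BXD97 on the left to BXD95 on the right). Most rows are red on the left and blue on the right. Single cells that stand out are the high Fosb of BXD66 and the low Fos of BXD87 and BXD90. Nr4a1 is lowest in BXD95 and BXD103.

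Whether the genes rose and fell together over strains was asked for all 36 pairs. Pearson's r was above 0 in all 36, from 0.14 to 0.78 with a median of 0.58, and Spearman's rho from 0.12 to 0.76 with a median of 0.56. In 33 pairs the permutation p of r was under 0.05, unadjusted. A pair was called where limma gave an adjusted p under 0.05 over all 41154 other probe sets with each gene in turn as the covariate, and 12 of the 36 pairs were called. The share of all transcripts called with a gene was 0.994% for Fos, 0.0121% for Fosb, 0.0243% for Jun, 0.034% for Junb, 0.0437% for Egr1, 0.279% for Atf3, 0.0146% for Ier2, 1.71% for Dusp1 and 0.00972% for Nr4a1.

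Egr1 was the gene with most partners, with 6 called pairs: Jun, Junb, Ier2, Atf3, Fos and Dusp1. Egr1 and Jun gave the highest correlation (r = 0.78, rho = 0.76, both with a permutation p of 1e-05, the smallest that 100000 permutations can give), with adjusted p of 0.00022 in limma with Jun as covariate. Egr1 and Junb had r = 0.76 (limma adjusted p 0.00045 with Junb as covariate). With Egr1 as covariate, the limma adjusted p was 0.0032 for Ier2 (r = 0.73), 0.0036 for Atf3 (r = 0.71) and 0.0213 for Fos (r = 0.66). Egr1 and Dusp1 were at the edge, with r = 0.64 and a limma adjusted p of 0.0497 with Egr1 as covariate.

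With Fos as the covariate, 5 of the other 8 genes were called: Junb (limma adjusted p 0.0043), Egr1 (0.0063), Jun (0.0139), Fosb (0.0285) and Atf3 (0.0373). Without BXD97 this count was 2 and without BXD79 it was 3. With Junb and Egr1 the call also held with the partner as covariate.

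Jun and Junb had 4 called pairs each, including the pair they form (r = 0.66). The pair Jun and Ier2 had r = 0.72, Jun and Atf3 r = 0.67, Junb and Ier2 r = 0.69 and Junb and Fos r = 0.71. Atf3 and Dusp1 had r = 0.74, with limma adjusted p of 0.0011 with Atf3 as covariate and 0.0018 with Dusp1. Fosb was in no called pair by limma, although 6 of its 8 permutation p were under 0.05, unadjusted. Of all transcripts, 10.4% had an unadjusted limma p under 0.05 with Fosb. The value of Fosb in BXD66 weighed on its pairs: Fos and Fosb had r = 0.58 with all strains and 0.77 without BXD66, where the pair was called.

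**Figure D3:**
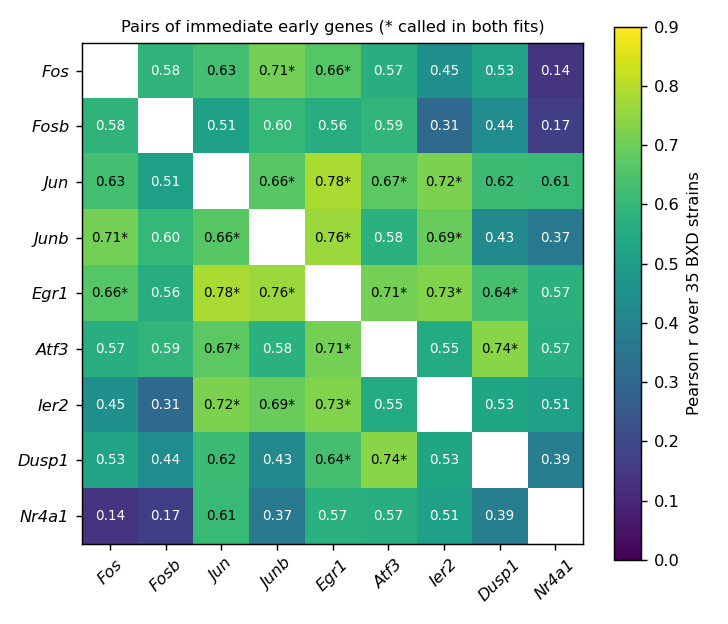
Pearson's r over the 35 BXD strains for each pair of the 9 genes (rows and columns, colour from 0 to 0.9, value printed in each cell), with an asterisk where limma called the pair in both fits. The highest cells, 0.78 and 0.76, join Egr1 with Jun and Junb, and the lowest, 0.14 and 0.17, join Nr4a1 with Fos and Fosb.

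The calls depended on a few strains. When the 2 strains farthest from the median of each covariate were left out, r stayed above 0 in all 36 pairs with a median of 0.58, and 3 pairs were still called: Egr1 with Jun (r = 0.73), Egr1 with Junb (r = 0.73) and Atf3 with Dusp1 (r = 0.66). Leaving out BXD97 gave 6 called pairs, and leaving out BXD69 or BXD79 gave 7 each. With macrophage and fibroblast marker scores as further covariates, chosen after seeing the data, 6 pairs were called, among them the same 3 and 2 that include Nr4a1.

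Nr4a1 with Fos and with Fosb were the 2 lowest correlations of the 36. Its r was 0.14 with Fos (rho = 0.12) and 0.17 with Fosb, and 0.61 with Jun, 0.57 with Egr1 and 0.57 with Atf3. None of its 8 pairs was called by limma, with 6 of 8 permutation p under 0.05, unadjusted. Of all transcripts, 4.77% had an unadjusted limma p under 0.05 with Nr4a1. With macrophage and fibroblast scores as covariates 2 pairs of Nr4a1 were called, Jun and Nr4a1 (r = 0.71, limma adjusted p 0.0187 with Jun as covariate) and Atf3 and Nr4a1 (r = 0.68, 0.0413 with Atf3 as covariate), and its r with Fos was 0.32. The difference between its correlations and those of the other genes was not tested. Of all 41154 other probe sets limma called 4 with Nr4a1, and they belong to Irs2, Sik1, Nr4a2 and Nr4a3, all in the same direction. Sik1 encodes a kinase induced by cyclic AMP and CREB, Irs2 an adaptor of the insulin receptor that is a known CREB target, and Nr4a2 and Nr4a3 the other receptors of the Nr4a family.

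Irs2 gave r = 0.83 (rho = 0.88, permutation p 1e-05 each) and a limma adjusted p of 3.6e-06. Sik1 gave r = 0.83 (rho = 0.85) and the same adjusted p of 3.6e-06, Nr4a2 r = 0.70 (rho = 0.77) with limma adjusted p 0.0105, and Nr4a3 r = 0.69 (rho = 0.76) with 0.0144. Irs2 has 2 probe sets, and the brighter was used. With the mean of both, its r with Nr4a1 was 0.77 (limma adjusted p 0.00062). The 4 genes also ran together, with r from 0.63 for Nr4a2 and Nr4a3 to 0.85 for Sik1 and Irs2. Their r with Fos was 0.02 for Sik1, 0.07 for Irs2 and 0.03 for both Nr4a2 and Nr4a3. Without the 2 strains farthest from the median of Nr4a1 their r with it was 0.84 for Irs2, 0.83 for Sik1, 0.71 for Nr4a2 and 0.71 for Nr4a3, and all 4 were called.

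Each of these transcripts varied widely. Sik1 ran from 10.20 in BXD103 through a median of 11.49 to 12.39 in BXD55, and Irs2 from 9.87 in BXD68 through 10.71 to 11.85 in BXD49, the strain highest in Nr4a1. Nr4a2 ran from 8.75 in BXD96 through 9.88 to 11.96 in BXD70, and Nr4a3 from 7.79 in BXD103 through 9.19 to 10.98 in BXD43. Sik1, Irs2 and Nr4a2 were called in all 35 fits that left out 1 strain, and Nr4a3 in 33. In the RefSeq promoters the CREB site core occurred 4 times each in Nr4a1, Nr4a2 and Nr4a3 and 0 times in Irs2, in the same 250-base window.

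**Figure D4:**
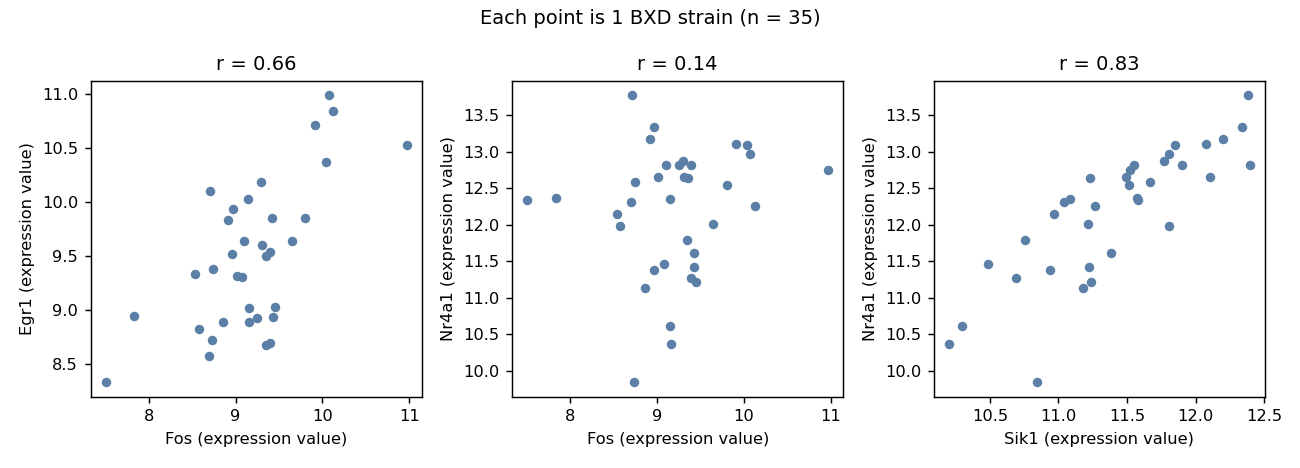
Expression values of Egr1 against Fos (left, r = 0.66), Nr4a1 against Fos (middle, r = 0.14) and Nr4a1 against Sik1 (right, r = 0.83), each point 1 of 35 BXD strains. The cloud rises in the left and right panels and is flat in the middle one.

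Other genes of the immediate early response were read from a list of 48, of which 47 were on the array. Of these 47, limma called 5 with Fos, all in the same direction: Zfp36 (r = 0.76, adjusted p 0.0022), Ccn1, named Cyr61 on the array (r = 0.71, 0.0041), Btg2 (r = 0.69, 0.0043), Klf6 (r = 0.67, 0.0074) and Egr3 (r = 0.63, 0.0142). Zfp36 encodes a protein that destabilises short-lived messengers, Ccn1 a matrix protein, Btg2 an antiproliferative factor, and Klf6 and Egr3 zinc finger factors. The median r of the 47 with Fos was 0.26, against -0.0087 over all transcripts. Zfp36 had the largest moderated statistic of all named transcripts with Fos.

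Egr1 was followed by Btg2 (r = 0.86, limma adjusted p 5.8e-07) and Egr3 (r = 0.85, 6.2e-07), against 0.78 with Jun, and 4 of the 47 were called with it. With Atf3 7 of the 47 were called, Ccn1 (r = 0.79), Egr3 (r = 0.78), Egr2 (r = 0.76), Zfp36 (r = 0.75), Fosl2 (r = 0.74), Klf4 (r = 0.64) and Btg2 (r = 0.64), and so was Srf, the gene of serum response factor itself (r = 0.72, adjusted p 0.0039). Dusp1 had 10 of the 47, among them Egr2 (r = 0.70), Ccn1 (r = 0.68), Fosl2 (r = 0.67) and Jund (r = 0.66), from 705 transcripts called in all. With the first principal component of the arrays as a further covariate 20 transcripts were called with Dusp1.

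**Figure D5:**
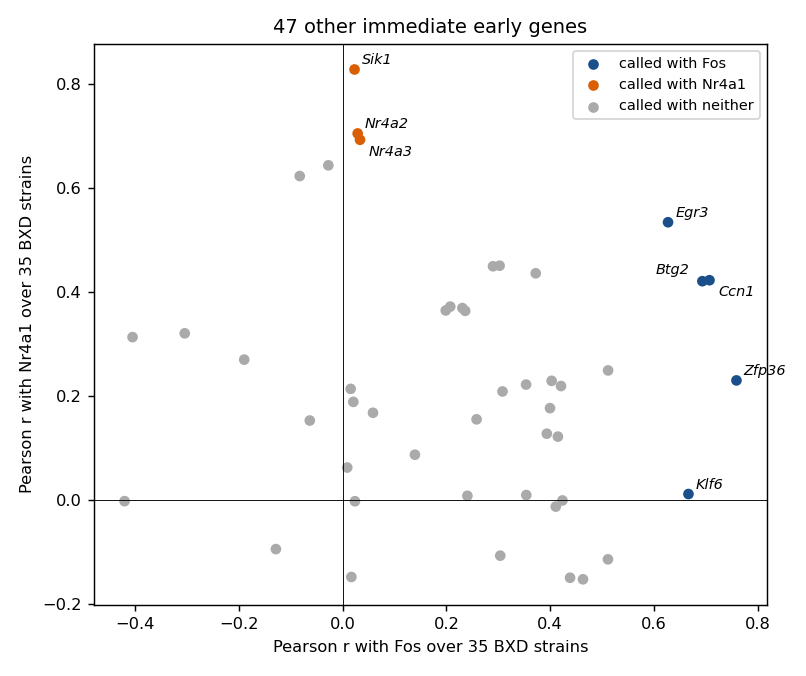
Pearson's r with Fos (horizontal axis) and with Nr4a1 (vertical axis) over 35 BXD strains for the 47 other immediate early genes, coloured by which gene limma called them with. Zfp36, Ccn1, Btg2, Klf6 and Egr3 lie at the right, and Sik1, Nr4a2 and Nr4a3 lie at the top close to an r of 0 with Fos.

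The transcripts most like the mean z score of the 9 genes were found by r over the 35 strains, as a description. Of the 10 nearest, 5 were on the list of other immediate early genes, Ccn1 (r = 0.85), Egr3 (0.84), Btg2 (0.82), Zfp36 (0.79) and Egr2 (0.70). The other 5 were Adamts1 (0.74), a secreted protease, Plekho2 (0.72), Slc25a25 (0.72), a mitochondrial carrier of adenine nucleotides, Zyx (0.71), a protein of focal adhesions, and Sertad1 (0.68). The 5 most opposed were Slc33a1 (-0.72), Stk38 (-0.71), Cwc15 (-0.70), Dclre1b (-0.70) and Kdsr (-0.69).

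Fos was followed by 409 transcripts, 219 in the same direction and 190 in the opposite one. Beside Zfp36 the 5 with the largest statistic were Plxdc2 (r = 0.73), Prrx1 (r = 0.72), a homeobox factor of mesenchymal cells, Pam (r = 0.73), which amidates peptides, and Slc22a4 (r = 0.73). The 5 at the other end were 4933406I18Rik (r = -0.70), Hsd17b12 (r = -0.70) of fatty acid elongation, Fam132a (r = -0.70), Nudt7 (r = -0.69), a peroxisomal coenzyme A hydrolase, and Car13 (r = -0.69), a carbonic anhydrase. The count was 49 without BXD97, and it was 161 without BXD69, 164 without BXD79, 195 without BXD45, 227 without BXD87 and 236 without BXD90.

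Of 10 fibroblast markers, 6 were called with Fos, all in the same direction: Pdgfra (r = 0.70, limma adjusted p 0.0043), Dcn (r = 0.64, 0.0186), Dpt, Fn1, Col3a1 and Mfap5. All 10 had an unadjusted limma p under 0.05, where 12.3% of all transcripts were, with a median r of 0.55. All 10 were above the limit, and their mean level ran from 10.1 in BXD48 to 11.5 in BXD61. Of 10 macrophage markers 2 were called with Fos by limma, the lysosomal protein Cd68 (r = 0.58, adjusted p 0.0304) and the mannose receptor Mrc1 (r = 0.54, 0.0493). All 10 macrophage markers also had an unadjusted limma p under 0.05 with Fos, with a median r of 0.47. Of the 10, 9 were above the limit, and their mean level ran from 8.96 in BXD48 to 10.7 in BXD61. In whole tissue, fewer cells of a type and less RNA per cell cannot be told apart.

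With macrophage and fibroblast scores as further covariates, 0 transcripts were called with Fos by limma, with 1768 at an unadjusted p under 0.05, while 8 were called with Nr4a1, including all 4 named above. In that fit r was 0.64 for Fos and Egr1 (0.66 without the covariates), 0.59 for Fos and Junb (0.71), 0.56 for Fos and Jun (0.63) and 0.43 for Fos and Fosb (0.58), none of them called. Brown fat markers, white fat markers, beta-adrenergic response genes and inflammatory genes each had 1 of 10 called with Fos by limma. They were the white fat hormone leptin (r = 0.54, adjusted p 0.0473) and the chemokine Ccl2 (r = 0.54, 0.0493). The others were Otop1, a proton channel of brown fat (r = -0.57, 0.0424), and Elovl3, a fatty acid elongase that rises in cold-exposed brown fat (r = -0.55, 0.0455). In the order of lists named, 5, 6, 3 and 4 of 10 had an unadjusted limma p under 0.05 with Fos. The median r was -0.31, 0.20, -0.23 and 0.27. With the mean z score of the 9 genes, white fat markers ran from -0.51 for Cyp2e1 to 0.47 for Ccdc80. The white fat score had r = 0.27 with Fos (limma adjusted p 0.51). Of 10 skeletal muscle markers 0 were called with Fos by limma and 0 had an unadjusted p under 0.05, the 2 with the largest r being Ckm (0.30) and Actn3 (0.29). Of 10 heat shock genes, 9 of the hypoxia response, 10 of the integrated stress response and 11 of the clock, 0 were called with Fos by limma, with 1, 3, 2 and 1 of them at an unadjusted p under 0.05, where 12.3% of all transcripts were, and the 2 of each with the largest r included Hspe1 (-0.55, adjusted p 0.061), Ndrg1 (0.52, 0.075), Asns (-0.55, 0.062) and the clock gene Ciart (-0.40, 0.26). Of 20 genes of upstream factors and kinases, such as Srf (r = 0.40, adjusted p 0.25), 0 were called with Fos by limma, with 3 at an unadjusted p under 0.05.

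The 9 genes were also set against the score of each of 21 lists, the mean z score of its genes, which gives 189 combinations, of which 14 were called by limma. The score of the 47 other immediate early genes called 6 of the 9, Atf3 (r = 0.81, adjusted p 2.5e-05), Egr1 (0.72), Dusp1 (0.70), Junb (0.69), Fosb (0.63) and Jun (0.63), from 0.754% of all transcripts. The score of 10 inflammatory cytokines and chemokines, of which 4 were above the limit, called 5, Atf3 (r = 0.71, adjusted p 0.0003), Fosb (0.58), Dusp1 (0.54), Fos (0.51) and Junb (0.49), from 4.1% of transcripts. BXD66, the strain that stood alone at the top of Fosb, also had the highest inflammatory score (1.49). The r of Fosb with this score without BXD66 is not given here. The fibroblast score called Fos (r = 0.66, adjusted p 0.00098) from 3.89%, and the macrophage score called Fos (r = 0.59, 0.0064) and Atf3 (r = 0.53, 0.0223) from 3.93%.

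Against the other 17 lists none of the 9 genes was called by limma, with a lowest adjusted p of 0.088 and 23 of 153 combinations at an unadjusted p under 0.05, where 3.55% to 17.9% of all transcripts were, depending on the score; 0% to 2.93% of all transcripts were called with those scores. Among them, r of the 9 genes with the clock score ran from -0.63 for Ier2 to -0.17. With this score 6 of the 9 had an unadjusted limma p under 0.05 (7.5% of all transcripts), and the lowest limma adjusted p was 0.28. Clock genes did not all go one way: r with the mean z score of the 9 genes ran from -0.46 for Ciart to 0.31 for Arntl. Genes that go opposite ways partly cancel in such a score, so it is a limited measure of the clock. It called 0 of 41144 transcripts. With the skeletal muscle score r of the 9 genes ran from -0.05 to 0.28, and with the brown fat score from -0.46 to 0.06. It ran from -0.28 to 0.37 with the score of genes known to respond to beta-adrenergic stimulation. The fibroblast and macrophage scores were 1.45 and 1.06 in BXD97 and 1.04 and 1.20 in BXD69, the strains highest in the 9 genes, but 0.13 and 0.30 in BXD65. They were -0.99 and -1.42 in BXD95, -0.60 and -0.40 in BXD90, and -0.19 and 0.17 in BXD103. With the skeletal muscle score as a covariate 130 transcripts were called with Fos and 10 of the 36 pairs, and with the liver score 350 transcripts and 14 pairs, in place of 409 and 12.

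Both parents lay below the BXD median in most of these genes. C57BL/6J lay below the BXD median in all 9 genes, with 0 to 13 of the 35 strains under it, and at most 17 strains lay below it for 53.7% of probe sets above the limit. Its Dusp1 value of 11.37 was lower than that of all 35 BXD strains, as was the case for 4.40% of probe sets above the limit. Its Jun value of 10.81 had 1 strain below it, its Fos value of 8.26 had 2 and its Atf3 value of 8.80 had 4. DBA/2J was higher than C57BL/6J in 8 of the 9 genes, against 52.0% of probe sets, with Fos at 8.59. DBA/2J lay below the BXD median in 8 genes, and at most 17 strains lay below it for 50.2% of probe sets above the limit. It was close to that median in Junb (9.773 against 9.778) and Atf3 (9.277 against 9.279). In Jun, at 11.62, it was above 22 of the 35 strains.

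Nr4a1 was the exception, at 12.09 in C57BL/6J and 11.29 in DBA/2J. The difference of 0.80 compares with a 95th percentile of 0.74 in size over the probe sets above the limit. Each parent has 1 array, so none of these differences has a replicate check, and the DBA/2J array also carried liver transcripts at a mean level of 10.6 against 8.18 in C57BL/6J.

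Measures of array quality were set against the 9 genes in 45 combinations of 5 measures, of which 4 had a permutation p under 0.05, unadjusted. The largest was Dusp1 with the median of the array (r = 0.60, permutation p 0.00018, rho = 0.64, permutation p 8e-05, and r = 0.56 without the 2 arrays farthest in the median). The other 3 concerned the poly-A controls, RNAs added to each sample before labelling: their mean had r = -0.37 with Jun (permutation p 0.027, rho = -0.39, p 0.02) and r = -0.34 with Fosb (p 0.043, rho = -0.49, p 0.0035), and their 3′ minus 5′ difference had r = 0.36 with Jun (p 0.033, rho = 0.27, p 0.12). Without the 2 arrays farthest in the measure these r were -0.25, -0.42 and 0.18. When every array was centred on its median, 10 of the 36 pairs were called, the pairs lost being Jun with Junb and Egr1 with Dusp1. The mean correlation of an array with the others had r between -0.26 and 0.04 with the 9 genes. The time of day of each sacrifice and the order of handling were not analysed here, and their part in the covariation was not tested.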

How the data were processed

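Brown adipose tissue RNA of 35 BXD strains, C57BL/6J and DBA/2J was measured on Affymetrix mouse gene arrays, 1 array per strain. The authors deposited 1 table of scores, each array rescaled to mean 8 and SD 2; Affymetrix Expression Console is named in the submitters' processing notes, and the transformation before the rescaling is not given in the sources used here. Of 41345 probe sets, 190 array controls were left out, and for each gene the probe set with the highest mean over the BXD arrays was used. Columns were assigned by strain name.

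Covariation over strains was tested with limma 3.58.1 (R 4.3.3) with the gene or list score as a continuous covariate, Benjamini-Hochberg adjustment over all probe sets tested and a threshold of 0.05. Pearson's and Spearman's correlations had 100000 two-sided permutations (numpy 2.4.6, scipy 1.17.1). With 1 array per strain there is no replicate within a strain, and the number of arrays limits the precision. Code was tested on simulated data. The members, the lists and the choice of results were made with earlier results of these data known. The text names all 9 genes, other immediate early genes called with Fos, the 5 largest and 5 smallest statistics with Fos, the 10 highest and 5 lowest correlations with the mean z score, at most 2 genes of each list and the 3 strains at each end; the genes called with Nr4a1, the further genes and strains named beside Egr1, Atf3, Dusp1 and Fos, and the fits without single strains were chosen after their values were seen.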

Additional observations from a re-analysis of the deposited data

How the results depend on the processing

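Single relations gave 624 values under the alternatives tried, of which 558 stayed on their side of the threshold, 47 lost the call and 19 gained it. Of those called as reported or under the alternative, 0 reversed direction, and a change of direction in relations called in neither was not counted. The stricter threshold and the test of only probe sets above the limit leave r as it was. Averaging does so for genes with 1 probe set, so these settings could not reverse a direction there. Several alternatives kept the counts within 1.5 times of those reported. They were both parents included, quantile normalization, centring on the array median, the liver score as covariate, averaged probe sets, ranks, and BXD70 left out. The counts were of transcripts, members and other immediate early genes called with Fos, of pairs, of list combinations and of transcripts called with Nr4a1. List combinations were not computed with the liver score as covariate. Over all alternatives, the transcripts called numbered 0 to 918 for Fos (409 as reported) and 2 to 8 for Nr4a1 (4). They numbered 7 to 401 for Atf3 (115), 20 to 1153 for Dusp1 (705) and 5 to 30 for Egr1 (18). The ranges were 2 to 25 for Junb (14), 1 to 16 for Jun (10), 0 to 8 for Fosb (5) and 1 to 7 for Ier2 (6).

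With the skeletal muscle score as covariate, 130 transcripts and 3 members were called with Fos, in place of 409 and 5. With the first principal component as covariate these were 232 and 3, and 7 of the list combinations were called in place of 14. Testing only probe sets above the limit gave 918 transcripts with Fos. Without the 2 strains farthest from the median of the covariate, 20 transcripts, 1 member and 1 other immediate early gene were called with Fos, and 3 pairs. At an adjusted p under 0.01 there were 51 transcripts and 2 members with Fos, 7 pairs, 8 list combinations and 2 transcripts with Nr4a1. With macrophage and fibroblast scores as covariates, chosen after seeing the data, 0 transcripts, 0 members and 0 other immediate early genes were called with Fos by limma (1768 transcripts at an unadjusted p under 0.05), while r of Fos and Egr1 was 0.64 in place of 0.66 and r of Fos and Jun 0.56 in place of 0.63; 6 pairs were called, and 8 transcripts with Nr4a1. The cause of these shifts was not tested.

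Leaving out 1 strain at a time gave 49 to 485 transcripts with Fos (lowest without BXD97), 2 to 6 members, 4 to 6 other immediate early genes, 6 to 14 pairs, 10 to 16 list combinations, 3 to 5 transcripts with Nr4a1 and a median SD of the 9 genes of 0.413 to 0.447, against 0.440. Without BXD66, chosen after seeing the data, 309 transcripts were called with Fos and 14 pairs. No paired analysis was possible because no strain has more than 1 array. Ier2 lies at the floor of the array, which limits what its low values can show.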
